A study of Drosophila melanogaster with 30 samples.

Results

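Voltage-gated and leak ion channels were followed across the brains of Drosophila melanogaster males that differed in genotype and housing. The 36 genes were found by symbol in the deposited table of estimated counts, which holds 24278 features, 17895 of them with FlyBase gene identifiers. All 36 were present, and all 36 passed the filter on low counts, so every member entered each test.

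There were 10 groups of 3 libraries, and each library was made from 30 brains. Single-housed (SH) and group-housed (GH) males were compared in 5 genotypes. The Or47b mutants (w+/Y; Or47b2/3) and the Or67d mutants (w+/Y; Or67dGAL4/GAL4) lack odorant receptors of antennal neurons that sense pheromones. The fru mutants (w+/Y; fruLexA/4-40) and the dsx mutants (w-/Y; dsxf00683-d07058/f01649-d09625) carry lesions in transcription factor genes of the sex determination pathway. Canton-S (CS) was the wild type, and only the dsx males are labelled w-. Ages and the length of housing are not given in the sources used here. Nothing beyond the word biological says how replicates were separated, so the p-values reflect how much such pools differ. The study asked how social experience and pheromone circuits shape transcription in the male brain.

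The channels set how a neuron fires. Sodium channels such as para carry the upstroke of the action potential, potassium channels repolarize the membrane, calcium channels couple firing to transmitter release, and leak channels hold the resting potential. In flies, several of the genes are known for behaviour: Sh, its beta subunit Hk, its modulator qvr (sleepless) and the leak channel sand (sandman) for sleep, and na (narrow abdomen) with unc79 and unc80 for daily locomotor rhythms.

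Library totals ran from 37612941 to 120862312 estimated counts. Levels are given in CPM, the usual depth-scaled count, after trimmed-mean scaling of library sizes, and genes are termed called where edgeR's quasi-likelihood test, adjusted over 11269 genes, gave a p under 0.05. The neuronal markers were well expressed, with a summed level of 14277 to 14622 CPM in dsx SH and of 9941 to 11177 CPM in CS SH for the 10 genes. The mutated genes followed the labels for fru (20.5 to 31.1 CPM in fru brains, 159 to 201 CPM in CS) and dsx (8.35 to 10.2 CPM in dsx brains, 12.8 to 20.6 CPM in CS). Or67d was at 0 CPM in all 6 Or67d libraries, but at only 0.145 to 0.511 CPM in CS. It was also called lower in dsx, by 2.29 in SH and 2.90 in GH (log2, edgeR adjusted p = 0.0017 and 0.00049), so this check is weak. Or47b was at 0 CPM in its mutant but reached no more than 0.107 CPM in CS, which checks little. The eye pigment gene w was at 0.163 to 0.478 CPM in dsx brains and at 1.38 to 2.16 CPM in Or67d brains, although those are labelled w+, against 9.24 to 16.9 CPM in CS. A deposited table marks 6 of the libraries AC and 24 notAC in a column on dissection, 1 AC library in each Or47b, fru and CS group and none in the Or67d and dsx groups, and that mark was a term of the fit.

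Most of the set was well expressed in these brains. The median member had 291 CPM over the 30 libraries, against 15.9 CPM for all genes tested, and its exons spanned 5812 bases, against 2013. Of the members, 9 (25%) lay on the X chromosome, against 16.7% of all genes tested. Per kilobase of exon, qvr, the Ly-6 protein that raises Sh current, was the highest member at 242 CPM per kilobase over all libraries. It was followed by para (136), the hyperpolarization-activated channel Ih (116), unc79 (107), the para accessory subunit Teh2 (106) and Sh (103). The inward rectifier Irk1 was the lowest at 1.68 CPM per kilobase, below the leak channel Ork1 (11.4) and the M-current channel KCNQ (12.9). Neighbours in this order often lay within a library's spread of each other: in CS SH, unc79 stood at 111 ± 6.93, Teh2 at 118 ± 24.9 and Ih at 117 ± 22.0 CPM per kilobase (SD, n = 3 each).

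**Figure D1:**
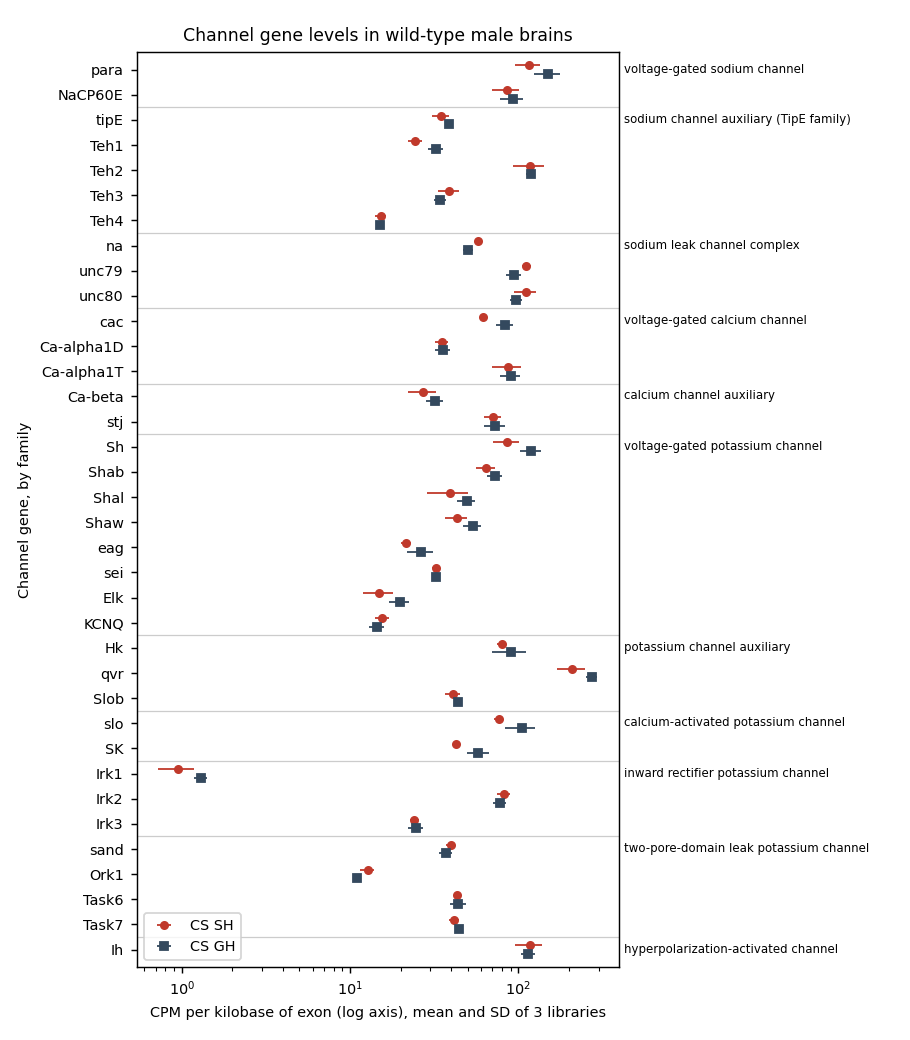
Mean level of each of the 36 channel genes in CS SH (red circles) and CS GH (blue squares) brains, in CPM per kilobase of exon on a log axis, with bars for the SD of 3 libraries and genes ordered by family. The levels span from about 1 (Irk1) to over 200 (qvr) in both groups.

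Within families, levels per kilobase over the 30 libraries were uneven. Among the 8 voltage-gated potassium channels, Sh (103) was followed by the delayed rectifier Shab (63.4), Shaw (54.1), the A-type channel Shal (50.3), the EAG-family channels sei (30.5), eag (25.7) and Elk (19.1), and KCNQ. The calcium-activated channels slo (large conductance) and SK (small conductance) stood at 88.9 and 53.0. NaCP60E, a channel related to para, stood at 92.9. The calcium channel subunits were Ca-alpha1T (T-type, 89.8), cac (the presynaptic channel, 74.7), stj (an alpha2-delta subunit, 67.5), Ca-alpha1D (L-type, 39.0) and Ca-beta (33.3). The sodium leak complex had unc80 at 92.7 beside na at 53.8. The remaining potassium channel partners were Hk (86.8) and the slo-binding protein Slob (41.3), and the remaining inward rectifiers were Irk2 (81.6) and Irk3 (24.0). Among the leak channels, Task7 (43.0) and Task6 (39.8) were above sand (17.1). The other para partners of the TipE family were tipE (36.9), Teh3 (33.4), Teh1 (31.5) and Teh4 (14.8).

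One member was all but missing in the fru and dsx mutants. The leak channel sand, a potassium channel that in flies is placed in the membrane of sleep-promoting neurons to silence them, lies on chromosome 2R at 8091696 to 8096948 on the plus strand (BDGP6.54 annotation, FBgn0033257, a single annotated transcript). It had 0.0736, 0.256 and 0.336 CPM in fru SH brains, against 73.1, 80.5 and 82.0 CPM in CS SH brains. In group housing it had 0.0421, 0.0489 and 0.266 CPM in fru brains, against 78.6, 75.7 and 66.4 CPM in CS brains. The groups did not overlap, and 2 of the fru GH libraries held no more than 3 counts of the gene.

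sand was also close to missing in the dsx mutants. They had 1.08, 0.7999 and 0.732 CPM of sand in SH and 0.602, 0.421 and 0.740 CPM in GH, against the CS values above. Every dsx library was above every fru library, although a fru against dsx contrast was not fitted. On the log2 scale the change was -8.53 (SE 0.29, edgeR adjusted p = 7.3e-16) for fru and -6.44 (SE 0.25, adjusted p = 5.8e-15) for dsx in SH, and -9.34 (SE 0.31, adjusted p = 4.3e-16) for fru and -6.91 (SE 0.25, adjusted p = 1.5e-15) for dsx in GH. Summed over 3 libraries, sand held 29 counts in fru SH, 17 in fru GH, 123 in dsx SH and 132 in dsx GH, against 11778 in CS SH and 9518 in CS GH. Relative to CS of the same housing, the pooled level was 0.265% (exact 95% interval 0.178 to 0.381) in fru SH and 0.150% (0.0873 to 0.240) in fru GH. It was 1.12% (0.927 to 1.33) in dsx SH and 0.812% (0.678 to 0.964) in dsx GH. These intervals cover counting error only.

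**Figure D2:**
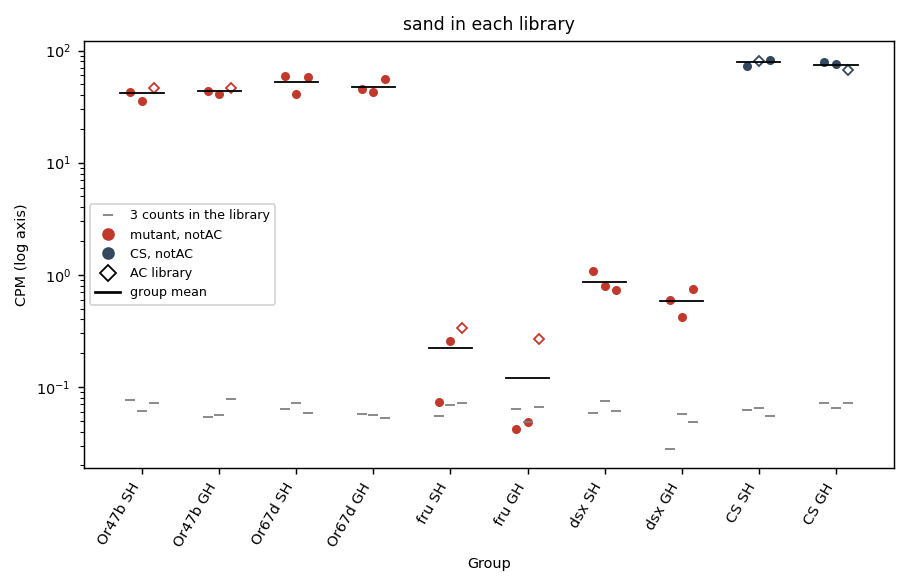
Level of sand in each of the 30 libraries, in CPM on a log axis, by group, with red for mutants, blue for CS, open diamonds for AC libraries, black lines for group means and grey marks for the CPM that 3 counts would give. The fru libraries lie between 0.0421 and 0.336 CPM and the dsx libraries between 0.421 and 1.08 CPM, while the CS libraries lie between 66.4 and 82.0 CPM.

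sand was also lower, by much less, in the pheromone receptor mutants. It had 42.8, 35.5 and 45.9 CPM in Or47b SH brains, against 73.1, 80.5 and 82.0 CPM in CS SH brains. In GH it had 43.5, 41.3 and 46.5 CPM in Or47b brains, against 78.6, 75.7 and 66.4 CPM in CS brains. All Or47b libraries lay below all CS libraries, with log2 changes of -0.93 (SE 0.18, edgeR adjusted p = 0.0020) in SH and -0.76 (SE 0.18, adjusted p = 0.013) in GH. The Or67d brains had 45.1, 42.3 and 55.5 CPM in GH (log2 change -0.59, SE 0.18, adjusted p = 0.037) and 58.8, 40.6 and 58.1 CPM in SH (adjusted p = 0.089), again below every CS library. The 4 mutants share the CS libraries, so their differences from CS are not independent of each other. The Or47b GH call was lost on leaving out Or47b GH replicate 2 or 3 or CS GH replicate 1, and the Or67d GH call without Or67d GH replicate 1 or 2 or CS GH replicate 1 or 2.

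Genes near sand were looked at for the same loss. Of the 15 other genes within 30 kb, a window chosen after the values were seen, 2 were called in fru SH (1 higher, 1 lower), 1 in fru GH (lower), 6 in dsx SH (4 higher, 2 lower) and 5 in dsx GH (3 higher, 2 lower). Over all genes tested, the shares called in either direction were 13.6%, 17%, 42.1% and 21.7% in these comparisons. sut1 was called higher in fru SH (log2 change 0.91, edgeR adjusted p = 0.0082) and in dsx SH (1.13, adjusted p = 0.00058), and CG17977 was called higher in dsx SH (1.07, adjusted p = 1.6e-05) and in dsx GH (0.54, adjusted p = 0.013). The gene uno overlaps the end of sand on the minus strand and changed by -0.38 (adjusted p = 0.0083) in fru SH and -0.46 (adjusted p = 0.0013) in fru GH, and by -0.22 (adjusted p = 0.081) in dsx SH and -0.27 (adjusted p = 0.047) in dsx GH. The gene next upstream, sut3, reached no more than 0.531 CPM in a library, and it was called higher in dsx SH (adjusted p = 0.012) and in dsx GH (adjusted p = 0.019). It averaged 0.294 CPM in dsx SH and 0.182 CPM in dsx GH, against 0.0387 CPM in CS SH and 0.0145 CPM in CS GH, and was at 0 CPM on average in both fru groups. The mutants and CS are separate stocks, so the named lesion and other differences of a stock cannot be told apart for sand or any other gene. In these brains, fewer cells that make a transcript and less of it per cell cannot be told apart.

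Irk1 moved the other way in the same mutants. This inward rectifier lies on 3R at 23168317 to 23185642 (plus strand, BDGP6.54), and it had the lowest mean level of the members over all 30 libraries. It had 13.3, 12.2 and 13.5 CPM in dsx SH brains and 10.2, 15.05 and 9.63 CPM in fru SH brains, against 5.27, 6.07 and 3.71 CPM in CS SH brains. In GH it had 12.2, 14.3 and 13.6 CPM in dsx brains and 11.5, 11.4 and 9.60 CPM in fru brains, against 7.17, 6.14 and 7.09 CPM in CS brains. No dsx or fru library overlapped with CS in either housing. The log2 changes in SH were 1.37 in dsx (SE 0.17, edgeR adjusted p = 2.7e-06) and 1.21 in fru (SE 0.17, adjusted p = 1.5e-05), and in GH they were 0.97 in dsx (SE 0.17, adjusted p = 0.00020) and 0.67 in fru (SE 0.16, adjusted p = 0.0058). Or47b SH brains had 7.14, 8.62 and 8.11 CPM, a log2 change from CS of 0.67 (SE 0.17, adjusted p = 0.016) that was lost without Or47b SH replicate 2 or 3 or without CS SH replicate 3. Exons of Irk1 overlap CG46310 on its own strand, which reached 1.62 CPM at most, and the more abundant cnc on the other strand. cnc was called higher in dsx SH (log2 change 0.47, adjusted p = 0.0066) and was not called in dsx GH (adjusted p = 0.061), fru SH (adjusted p = 0.77) or fru GH (adjusted p = 0.53). Whether strand was used in counting is not given in the sources used here.

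**Figure D3:**
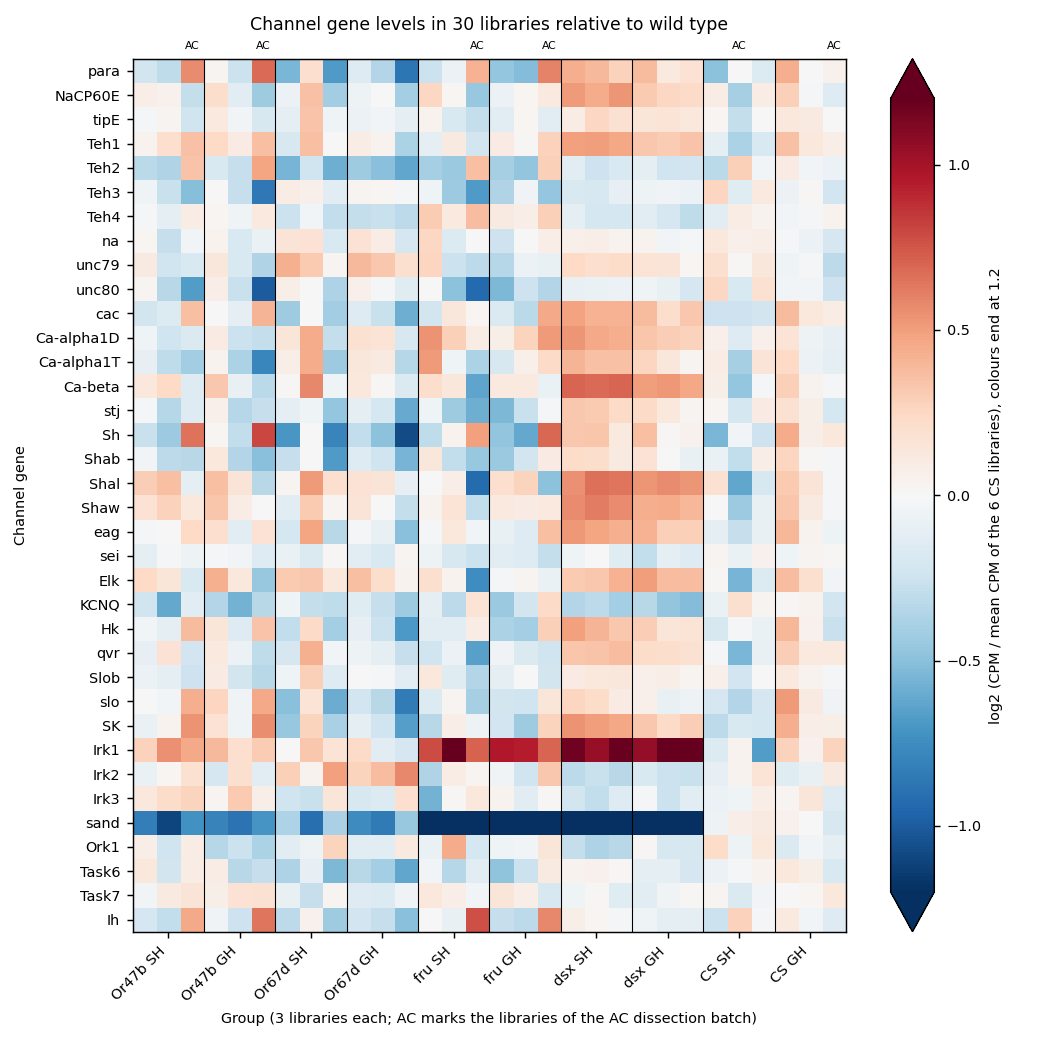
Each of the 36 channel genes (rows, by family) in each of the 30 libraries (columns, 3 per group, CS at the right), as log2 of CPM over the mean CPM of the 6 CS libraries, with colours that end at 1.2 in either direction and AC libraries marked. sand is darkest blue across all fru and dsx columns, Irk1 is red there, and the dsx columns are red for most potassium, sodium and calcium channels.

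The widest change of the set was in dsx mutants housed singly. Against CS SH, 19 of the 36 members were called, against 42.1% of all genes. Of them, 15 rose (41.7%, against 18.7% of all genes) and 4 fell (11.1%, against 23.4%). The members' median log2 change was 0.25, against -0.06 for all genes tested. Groups that did not overlap showed the same tilt: 22 members had every dsx SH library above every CS SH library (61.1%, against 26.2% of all genes).

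The sodium channel gene para and the related gene NaCP60E rose. para had 2935, 2834 and 2626 CPM in dsx SH brains, against 1543, 2170 and 1935 CPM in CS SH brains, a log2 change of 0.77 (edgeR adjusted p = 0.010). The para call was lost without the AC term. NaCP60E rose by 0.45 (adjusted p = 0.028), a call lost in the notAC libraries alone and without dsx SH replicate 1 or 3 or CS SH replicate 2 or 3. Of the para partners, Teh1 rose by 0.71 (adjusted p = 0.00027) while Teh3 fell by 0.37 (adjusted p = 0.0092, lost without the AC term). Reads of Teh3 can be shared with Teh2, whose exons overlap it on the same strand.

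Of the 8 voltage-gated potassium channels, 5 rose. Shaw had 358, 369 and 359 CPM in dsx SH brains, against 241, 179 and 227 CPM in CS SH brains, and rose by 0.68 (adjusted p = 7.9e-05). Sh rose by 0.76 (adjusted p = 0.016), eag by 0.65 (adjusted p = 0.0049), Shal by 0.62 (adjusted p = 0.00059) and Elk by 0.43 (adjusted p = 0.0082), while KCNQ fell by 0.33 (adjusted p = 0.043). The KCNQ call was lost with each of the 6 libraries left out and in 5 of 9 other settings, and the Sh call without CS SH replicate 2 and without the AC term. The modulators of Sh moved with it, Hk by 0.58 (adjusted p = 0.016) and qvr by 0.47 (adjusted p = 0.0049), and the Hk call was lost without dsx SH replicate 1 or CS SH replicate 2 and without the AC term. Of the calcium-activated channels, SK rose by 0.83 (adjusted p = 0.0012), and slo, at 0.46, was not called.

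Calcium channel genes rose too: cac by 0.76 (adjusted p = 0.00077), Ca-beta by 0.69 (adjusted p = 0.00053) and Ca-alpha1D by 0.45 (adjusted p = 0.022). The Ca-alpha1D call was lost without dsx SH replicate 1 or CS SH replicate 2 and in the notAC libraries alone. cac had 1201, 1151 and 1148 CPM in dsx SH brains, against 726, 727 and 741 CPM in CS SH brains. None of the 4 two-pore-domain leak channels was called higher. Beside sand, the leak channel Ork1 fell by 0.45 (adjusted p = 0.010), with 43.6, 41.2 and 42.2 CPM in dsx SH brains, against 62.0, 51.0 and 58.0 CPM in CS SH brains. Of the sodium leak complex, na, unc79 and unc80 were not called, with log2 changes of -0.03, 0.05 and -0.31. The other members without a call in dsx SH were Shab, sei, Irk2, Irk3, Task6, Task7, Ca-alpha1T, stj, Ih, tipE, Teh2, Teh4 and Slob, with log2 changes from -0.29 to 0.32.

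**Figure D4:**
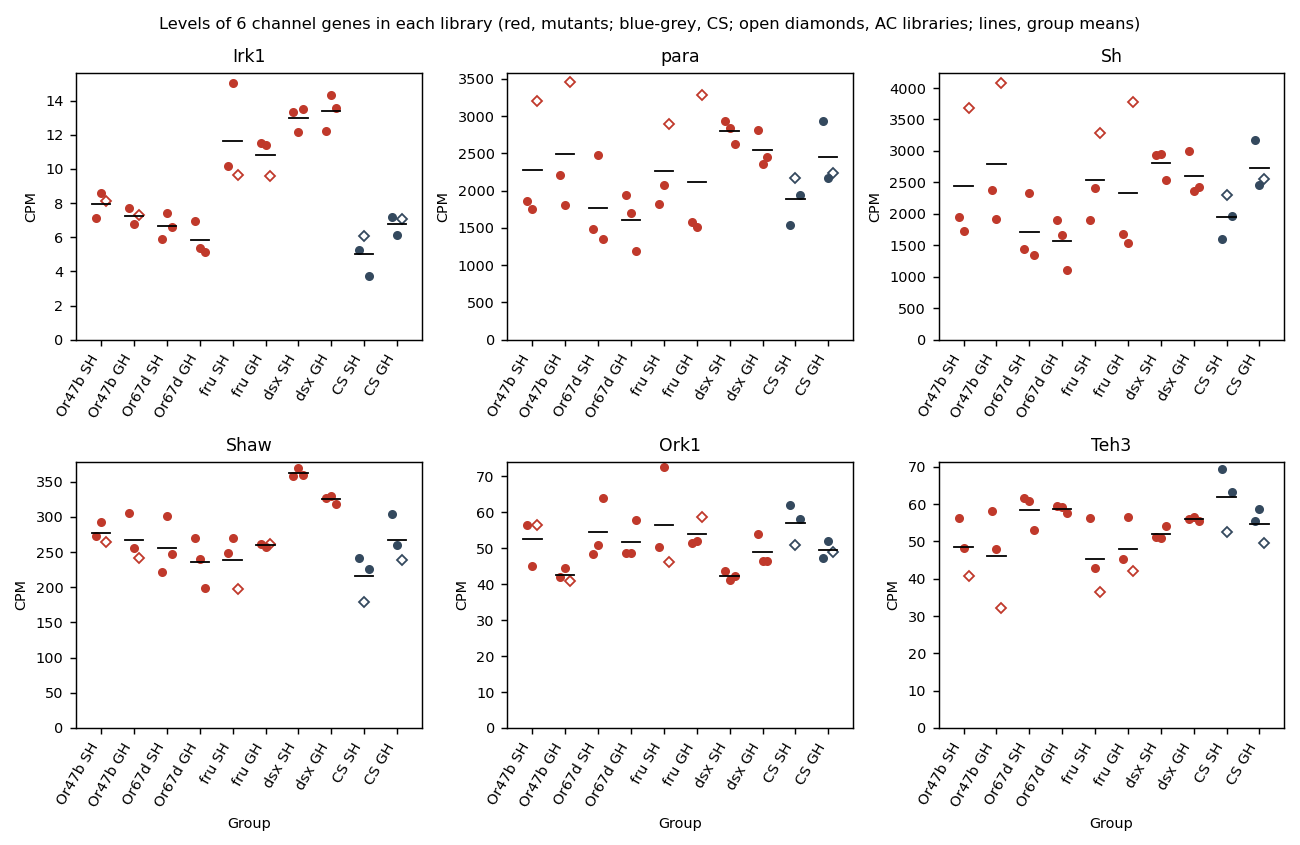
CPM of Irk1, para, Sh, Shaw, Ork1 and Teh3 in each library by group on axes that start at 0, with red for mutants, blue-grey for CS, open diamonds for AC libraries and lines for group means. The dsx SH libraries of Shaw lie at 358 to 369 CPM, above all 3 CS SH libraries, and the AC libraries of para and Sh stand above the other libraries of the Or47b and fru groups.

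Other measures moved with this result. Transcripts of the mitochondrial genome took 12.9% to 14.1% of counts in dsx SH libraries, against 2.99% to 4.56% in CS SH libraries. With that share as a covariate, 3 members were called in dsx SH (sand, Irk1 and Ork1). Calls over all genes fell as well, to 1125 with the covariate from 4745 without it. The share did not overlap between these groups, so that fit cannot well separate it from genotype. The estimates that lost their call differed in size under that covariate: Elk stood at 0.39 (SE 0.20), Ca-alpha1D at 0.42 (SE 0.25), NaCP60E at 0.36 (SE 0.26) and Ca-beta at 0.49 (SE 0.23), while SK stood at 0.02 (SE 0.22), para at 0.05 (SE 0.34) and cac at 0.09 (SE 0.20). Neuronal markers were called higher for 7 of 10 genes and lower for none, Syt1 by 0.86 and elav by 0.83 on the log2 scale. Fat body markers were higher for 5 of 7 tested genes, with a summed level of 1721 to 2104 CPM in dsx SH and of 619 to 1619 CPM in CS SH. Among them were the yolk protein genes Yp1 (7.36), Yp2 (6.63) and Yp3 (6.54), and Cyp6a20 (0.71). Cyp6a20 was also called higher in Or47b in both housings, in Or67d GH and in fru SH. Whether the rise of the fat body markers reflects more fat body tissue was not tested. Muscle markers were lower for 5 of 7 and higher for 1 (summed level 170 to 198 CPM in dsx SH, 176 to 322 CPM in CS SH), and photoreceptor markers were lower for 5 of 11 and higher for 1 (1134 to 1280 CPM in dsx SH, 994 to 2878 CPM in CS SH). The genes called higher, Tm1 (0.35) and norpA (0.38), held a large part of these sums. Over the 30 libraries they had 129 to 182 CPM (Tm1) and 540 to 851 CPM (norpA). Among the 1057 other genes with exons of 5812 bases or more, 36.5% were called higher and 9.27% lower, against 18.7% and 23.4% of all genes, and among the 18 members of that length 9 (50%) were higher and none lower. The part of these measures in the result was not tested.

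Of 3 lists of genes that work beside the channels, 2 held more genes called higher than lower in dsx SH. Over all genes, 18.7% were called higher and 23.4% lower. Of 17 channel relatives and regulators tested, 11 were called higher and none lower, among them CaMKII, a calcium-dependent kinase (1.53, adjusted p = 1.9e-05), stol, an alpha2-delta protein (0.93, adjusted p = 6.5e-05), and the RNA editing enzyme Adar (1.09, adjusted p = 0.00030). Of 19 pumps and ion transporters, 10 were higher and 1 lower, with the sodium pump subunit nrv3 at 1.07 (adjusted p = 0.00026) and the calcium pump PMCA at 0.73 (adjusted p = 0.00090). Of 26 TRP, cyclic nucleotide-gated, mechanosensitive and chloride channels, 3 were higher and 4 lower, with a median log2 change of -0.11.

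In group housing fewer members were called in dsx. Against CS GH, 3 of 36 members were called (8.33%, against 21.7% of all genes): Irk1, sand and the ERG-type channel sei, which fell by 0.21 (adjusted p = 0.030). The members' median log2 change was 0.04, against -0.04 for all genes tested. cac had 1122, 1001 and 1078 CPM in dsx GH brains, against 1125, 938 and 915 CPM in CS GH brains, so the groups overlapped. The sei call was lost in 7 of 9 other settings and without dsx GH replicate 1 or 3 or CS GH replicate 2 or 3. Fitted on the compared groups alone, 8 members were called, 4 in each direction. That fit called 4084 genes in all, against 2449 in the fit of all libraries. Fat body markers were called higher in dsx GH for 5 of 7 genes (summed level 1511 to 2050 CPM in dsx GH, 648 to 890 CPM in CS GH), neuronal markers for 3 of 10, haemocyte markers for 2 of 4 and glial markers for 2 of 10, with none lower. The fat body genes again included Yp1 (5.41), Yp2 (5.07), Yp3 (5.12) and Cyp6a20 (0.80). The mitochondrial share was 12.4% to 13.2% in dsx GH and 4.42% to 10.3% in CS GH, and the part of these measures in the calls was not tested.

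**Figure D5:**
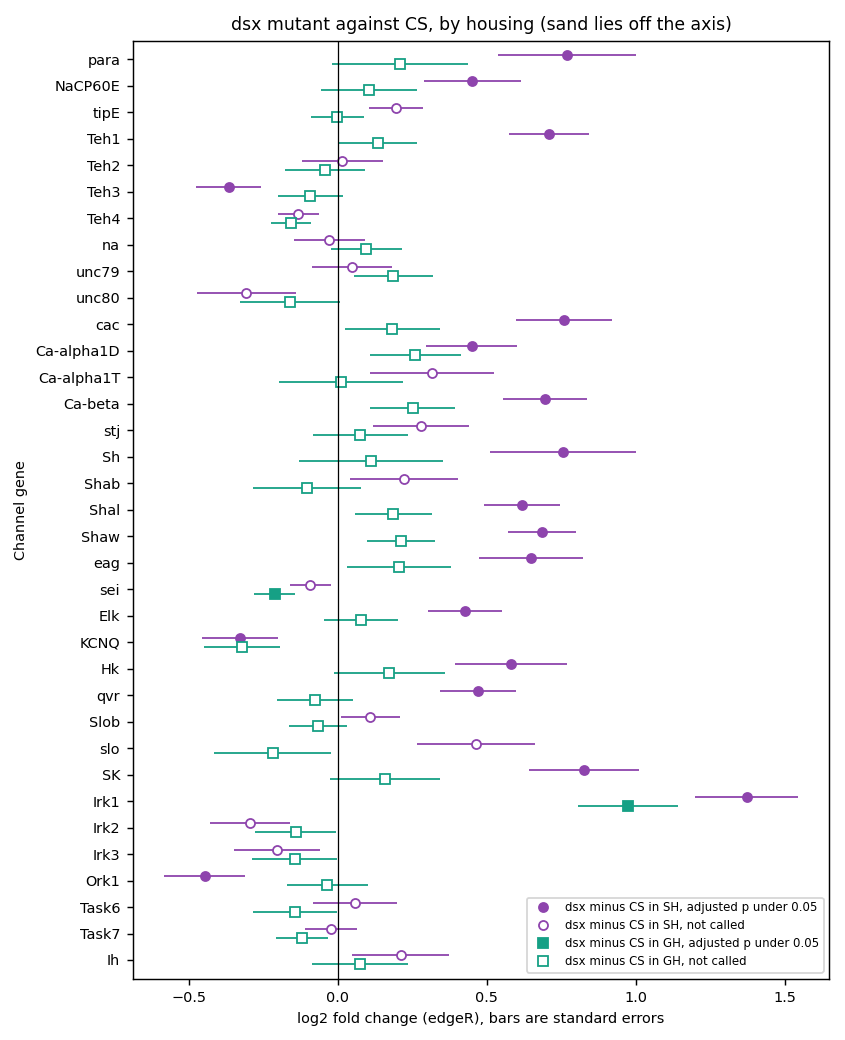
Log2 fold change of each channel gene in dsx against CS brains, in SH (purple circles) and GH (green squares), with bars for the standard error and filled symbols for adjusted p under 0.05. sand is left out because it lies off the axis at -6.44 and -6.91. Most purple points lie right of the green point of the same gene, and Irk1 is filled in both housings.

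The test of that contrast between housings made no call. For the housing effect in dsx minus the housing effect in CS, 0 of 36 members were called in edgeR (0.00887% of all genes), 9 had an unadjusted p under 0.05 (25%, against 13.4% of all genes), and DESeq2 and limma each called 0. The estimates were positive for 28 of 36 members, with a median of 0.25, against -0.01 over all genes tested. The median was 0.18 for the neuronal markers and 0.27 for the channel relatives and regulators. It was 0.09 for the pumps and transporters and -0.07 for the list with TRP channels. Among the members, the smallest p values were those of qvr (0.55, SE 0.18), Teh1 (0.58, SE 0.19) and Shaw (0.47, SE 0.16), each at an adjusted p of 0.25 to 0.27. Fitted on the groups compared alone, 6 were called higher: qvr, Teh1, Shaw, SK, cac and slo. That fit called 283 genes in all, against 1 in the fit of all libraries.

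Housing itself called no channel gene in any genotype. In CS, 0 of 36 members were called, against 1.86% of all genes, and 10 had an unadjusted p under 0.05 (27.8%, against 18.5%). All 10 were lower in SH, and 26 of 36 estimates were negative, with a median of -0.11, against 0.0012 for all genes. The median was -0.21 for the neuronal markers and -0.17 for the channel relatives and regulators. It was -0.03 for the pumps and transporters and 0.02 for the list with TRP channels. Elk had 94.0, 62.9 and 83.1 CPM in CS SH brains, against 120, 106 and 90.6 CPM in CS GH brains, which overlap (log2 change -0.41, SE 0.12, edgeR adjusted p = 0.069). qvr had 1209, 839 and 1152 CPM in CS SH, against 1512, 1329 and 1334 CPM in CS GH, with no overlap (-0.40, SE 0.12, adjusted p = 0.082). Teh1 likewise did not overlap (-0.41, SE 0.13, adjusted p = 0.088). DESeq2 called 2 members (Elk and qvr), as did edgeR without CS GH replicate 2, and limma called 0. Calls over all genes rose as well, from 210 in the main edgeR fit to 663 in DESeq2 and 436 without CS GH replicate 2. The mitochondrial share was 2.99% to 4.56% in CS SH and 4.42% to 10.3% in CS GH, and its part in these estimates was not tested.

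Within the mutants housing called no member either. No member was called by edgeR, DESeq2 or limma in Or47b (0.213% of all genes were, in edgeR), Or67d (0.0266%), fru (0.169%), dsx (0.0177%) or the average over genotypes (1.28%). Fitted on the dsx groups alone, NaCP60E and Ca-beta were called higher in SH. That fit called 57 genes in all, against 2 in the fit of all libraries. At an unadjusted p under 0.05 there was 1 member in Or47b (Ork1; 4.29% of all genes), 0 in Or67d (3.02%), 1 in fru (Shal; 10.5%), 0 in dsx (3.39%) and 1 in the average (sand; 9.55%). In dsx brains, 16 members had every SH library above every GH library (44.4%, against 10.8% of all genes), by small steps: Shaw had 358, 369 and 359 CPM in SH, against 327, 330 and 318 CPM in GH. The median over the 36 members was 0.12 in dsx, against -0.0048 for all genes, and 0.10 in Or67d, against -0.0067. The neuronal markers had medians of 0.02 in dsx and 0.09 in Or67d, and the channel relatives and regulators 0.08 in each. The pumps and transporters had 0.03 in each, and the list with TRP channels -0.06 in dsx and -0.01 in Or67d. Differences of the housing effect from that of CS were called for 0 members in Or47b (0.0177% of all genes), Or67d (0.177%) and fru (0.222%), and the members at an unadjusted p under 0.05 numbered 5 in Or47b (8.3% of all genes), 12 in Or67d (14.3%) and 2 in fru (8.12%). DESeq2 called 1 member, qvr, for Or67d, as did edgeR without Or67d SH replicate 1, and limma called 0. For Or67d, DESeq2 called 103 genes in all and edgeR without that library 208, against 20 in edgeR with all libraries.

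The fru mutants differed from CS in few channels beyond sand and Irk1. In SH, 5 members were called (13.9%, against 13.6% of all genes): Teh4 rose by 0.26 (edgeR adjusted p = 0.0086), while Teh3 fell by 0.46 (adjusted p = 0.0047) and unc80, a large auxiliary protein of the na channel, fell by 0.54 (adjusted p = 0.029). The unc80 call was lost without fru SH replicate 2 or 3 or CS SH replicate 1 or 2, and the Teh4 call without CS SH replicate 1. In GH, only sand and Irk1 were called (5.56%, against 17% of all genes). The members' median log2 change was -0.16 in GH, against -0.03 for all genes. In GH it was -0.18 for the neuronal markers and -0.15 for the channel relatives and regulators. It was -0.07 for the pumps and transporters and -0.02 for the list with TRP channels. In fru SH, muscle markers were called lower for 5 of 7 genes, fat body markers higher for 2 of 7 (Yp2 and Cyp6a20), glial markers higher for 3 and lower for 1 of 10, and haemocyte markers higher for 2 and lower for 1 of 4. In fru GH, haemocyte markers were called higher for 3 of 4 genes, glial markers higher for 2 and lower for 1 of 10, and neuronal markers lower for 2 of 10. The part of these markers in the channel calls was not tested.

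The Or47b mutants had 5 members called in SH (13.9%, against 8.43% of all genes). Beside sand and Irk1, Teh1 rose by 0.43 (edgeR adjusted p = 0.046), Shaw rose by 0.37 (adjusted p = 0.041) and Teh3 fell by 0.35 (adjusted p = 0.042), and each of these 3 was lost when any of at least 4 of the 6 libraries was left out. In GH, only sand was called (2.78%, against 3.79%). qvr, which lies 0.121 Mb from Or47b, was called in neither housing. Muscle markers were called lower in Or47b SH for 5 of 7 genes, and their part in these calls was not tested.

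In the Or67d mutants, 6 members were called in GH (16.7%, against 9.77% of all genes) and 0 in SH (5.64% of all genes, with 8 members, 22.2%, at an unadjusted p under 0.05, against 16.4% of all genes). In GH the inward rectifier Irk2 rose, with 241, 258 and 298 CPM in Or67d brains, against 181, 188 and 215 CPM in CS brains (0.51, SE 0.14, edgeR adjusted p = 0.017). Beside sand, slo fell by 0.63 (adjusted p = 0.043), the leak channel Task6 by 0.45 (adjusted p = 0.045), qvr by 0.43 (adjusted p = 0.034) and Teh4 by 0.23 (adjusted p = 0.028). The estimate was negative for 31 of 36 members in GH, with a median of -0.24, against -0.01 for all genes. The median was -0.20 both for the neuronal markers and for the channel relatives and regulators, with none of either list called. It was -0.11 for the pumps and transporters and -0.05 for the list with TRP channels. The count depended on single libraries: it was 0 without CS GH replicate 1 and 9 without CS GH replicate 3, with 1 to 3 for the other 4 libraries. Over all genes, 770 were called without CS GH replicate 1, against 1101 with all libraries. In Or67d GH, haemocyte markers were called higher for 2 of 4 genes (summed level 359 to 371 CPM in Or67d GH, 241 to 270.1 CPM in CS GH), glial markers for 2 of 10 and fat body markers for 2 of 7 (Lsp2 and Cyp6a20), with none lower. The mitochondrial share was 2.51% to 5.41% in Or67d GH and 4.42% to 10.3% in CS GH, and the part of these measures in the calls was not tested. In SH, DESeq2 and limma also called 0, while edgeR on the notAC libraries alone called 1, sand, which was lower. That fit called 535 genes in all, against 636 in the fit of all libraries.

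As many members differed with the AC mark as in dsx SH. Over the 6 AC libraries, 8 members were higher and 11 lower than in the 24 notAC libraries, together 52.8%, against 54.7% of all genes. Sh rose by 0.69 (edgeR adjusted p = 0.00036), para by 0.59 (adjusted p = 0.00098), Ih by 0.58 (adjusted p = 3.1e-05) and Teh2 by 0.56 (adjusted p = 6.7e-06). Shal fell by 0.60 (adjusted p = 2.7e-06), Elk by 0.47 (adjusted p = 2.3e-05) and unc80 by 0.44 (adjusted p = 0.00085). In Or47b GH, the AC library had 4087 CPM of Sh, against 2377 and 1914 CPM in the notAC libraries. The photoreceptor markers were higher in AC for 11 of 11 genes, the muscle markers for 5 of 7 and the fat body markers for 4 of 7, and their part in the channel differences was not tested. In the notAC libraries alone, sand and Irk1 were called as above in fru and dsx in both housings, and 18 members were called in dsx SH.

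Variation across the 10 groups was summarised by group means. The ratio of the highest to the lowest group mean had a median of 1.55 in the members and of 1.55 in all genes tested. It was 660 for sand and 2.67 for Irk1, and from 1.14 (na and sei) to 1.80 (Sh) for the others. Group means were highest in dsx SH for 19 members and lowest in Or67d GH for 14. The shares over all genes were not taken, so these counts say nothing particular about channels. The means are of CPM not adjusted for the AC mark, and the dsx and Or67d groups hold no AC library.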

How the data were processed

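RNA was sequenced from 30 libraries of male fly brains. Per the labels' protocols the libraries were stranded and poly(A)-selected. The submitters' processing notes name the build BDGP6 and the tools Salmon, STAR and DESeq2; versions and roles are not given in the sources used here. The authors deposited a table of estimated counts, of which 11.9% of values were not whole, so they were rounded; rows without a gene identifier (0.600% to 1.38% of counts) were left out. A second deposited table holds scaled signal values per gene, by a method not stated, and was used only as an alternative, on log2(value + 1).

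Genes were tested in a fit of all 30 libraries with edgeR 4.0.16 (R 4.3.3), with group and the AC mark as terms, trimmed-mean scaling, edgeR's filter on low counts and Benjamini-Hochberg adjustment over 11269 genes, with calls at 0.05. Fold changes are adjusted for the AC mark, and the CPM values are not. No p-value was adjusted over the channel list alone. Lengths and overlaps came from the BDGP6.54 annotation. A count of 3 corresponds to 0.0282 to 0.0785 CPM. Alternatives used DESeq2 1.42.0, limma 3.58.1, other scaling, filter, terms or libraries, and leaving out each library.

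The 36 members and the lists of related genes and markers were chosen with earlier results of these data known. All members are named. Those with calls of 1 direction in SH and in GH of a mutant are given for every library, others by log2 change and adjusted p, with up to 4 genes of a related list per comparison. Further members shown by library (para, Shaw, cac, Ork1, Elk, qvr, Irk2 and Sh) were chosen after their values were seen. No 2 libraries held identical values.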

Additional observations from a re-analysis of the deposited data

How the results depend on the processing

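The sand and Irk1 calls in fru and dsx, in both housings, and the Ork1 call in dsx SH kept direction and call under every alternative and with every library left out. In dsx SH, 19 members were called, among 4745 genes in all, and 3 among 1125 with the mitochondrial share as a covariate. The Sh estimate was then -0.080 (SE 0.35, edgeR adjusted p = 0.905), within its SE of no change. Or47b SH went to 3 with DESeq2 size factors and with the replicate block, 2 without the filter, without the AC term, in notAC libraries and with only the groups compared, and 1 with the covariate and with limma. Over all genes, the Or47b SH calls went from 950 to 916 with these size factors, 825 with the block and 744 without the filter. They went to 306 without the AC term, 304 in notAC libraries, 534 with only the groups compared, 416 with the covariate and 838 with limma. Or47b GH went to 0 without the AC term and with limma, where all-gene calls went from 427 to 230 and 388. Or67d GH, with 6, went to 3 without the filter, 1 without the AC term and 2 with the covariate or limma. Its all-gene calls went from 1101 to 954, 608, 876 with the covariate and 1008 with limma. Or67d SH went to 1 in notAC libraries, where all-gene calls went from 636 to 535. For fru SH, with 5, the count was 2 without the AC term, 3 in notAC libraries and 2 with only the groups compared. The all-gene calls of fru SH went from 1532 to 846, 923 and 589 in these settings. For fru GH, with 2, the count was 5 in notAC libraries and 4 with the covariate. There the all-gene calls went from 1918 to 1247 and 2085. With only the groups compared, dsx GH had 8, dsx housing 2 and the dsx housing difference 6. All-gene calls there were 4084, 57 and 283. DESeq2 gave 2 for CS housing and 1 for the Or67d housing difference, among 663 and 103 genes called in all. The cause of these shifts was not tested.

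With single libraries left out, counts ranged from 14 to 18 in dsx SH, 2 to 3 in dsx GH, 3 to 5 in fru SH, 2 to 3 in fru GH, 1 to 5 in Or47b SH, 0 to 2 in Or47b GH, 0 to 1 in Or67d SH, 0 to 9 in Or67d GH, 0 to 2 for CS housing, 0 to 1 for the Or67d housing difference and 15 to 21 for AC. Calls over all genes moved too, for example from 950 to 327 in Or47b SH without Or47b SH replicate 3. KCNQ in dsx SH was lost with each library left out. Same-numbered replicates correlated above 0.1 in all pairs for 2 of 13 comparisons (Or47b and fru housing), where the replicate block gave 0 calls, as did the fit without it. These correlations were not adjusted for the AC mark, which lies on replicate 3 in both housings of Or47b and fru. In CS the mark lies on SH replicate 2 and GH replicate 3. The correlations therefore cannot show whether replicate numbers paired the samples. The median level per kilobase was 51.7 CPM by exon length, 55.2 by the longest transcript and 115 by coding length.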

Other observations

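Channels outside the voltage-gated and leak families also differed between mutants and CS. nompC, a mechanosensitive TRP channel, fell by 1.81 in Or47b SH (log2, edgeR adjusted p = 2.5e-08) and by 1.75 in Or47b GH (adjusted p = 5.6e-08). It also fell by 1.06 in fru SH (adjusted p = 2.1e-05) and by 0.67 in Or67d SH (adjusted p = 0.0067). Its level was low, at 0.524 to 3.16 CPM over the 30 libraries. The DEG/ENaC channel ppk29, whose exons overlap those of sei on the other strand, fell by 1.47 in Or47b SH (adjusted p = 2.6e-05) and by 1.39 in Or47b GH (adjusted p = 5.9e-05). In this list of 26 genes, 3 were lower in Or47b SH and 2 in Or47b GH, with none higher. Tmc, a mechanosensory channel gene, rose by 0.92 in fru SH (adjusted p = 0.00014) and by 0.90 in fru GH (adjusted p = 0.00018). The TRPV gene iav, at 0.292 to 2.23 CPM, fell by 1.78 in dsx GH (adjusted p = 1.2e-05) and by 1.61 in dsx SH (adjusted p = 3.2e-05). It also fell by 0.90 in fru GH (adjusted p = 0.0089).

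Among the 19 pumps and transporters, the cation-chloride cotransporter Ncc69 rose by 0.77 in fru GH (adjusted p = 3.9e-06), by 0.31 in dsx GH (adjusted p = 0.026) and by 0.41 in CS SH against CS GH (adjusted p = 0.031). It also rose by 0.41 in Or67d GH (adjusted p = 0.0087) and by 0.29 in fru SH (adjusted p = 0.048). The GH calls and the CS housing call share the CS GH libraries, so they are not independent. Among the 17 channel relatives and regulators, CaMKII rose by 0.80 in dsx GH (adjusted p = 0.012) and by 0.76 in Or47b SH (adjusted p = 0.033). Glial markers were called higher for 2 and lower for 2 of 10 genes in dsx SH, and haemocyte markers higher for 1 and lower for 1 of 4.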
